A study of Homo sapiens with 3 samples.

Results

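A set of 10 genes known as directly activated targets of EWS-FLI1 was followed in TC32, an established Ewing sarcoma cell line. They are NR0B1, STEAP1, STEAP2, PRKCB, LIPI, UGT3A2, PPP1R1A, FCGRT, BCL11B and PCSK2. Members were found by gene name, and these 10 are among 22714 named genes. Each of 9 stood on a single locus and LIPI on a pair of loci that were summed, so that 11 loci were used of 88434. No member was part of a joined name.

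The data are 3 RNA-seq libraries, 1 for each group. The control library carries the label WT Control, the knockdown library has EWS-FLI1 knocked down, and the remaining library is from cells exposed for 15 hours to 3 µM YK-4-279 in DMSO. YK-4-279 is a small molecule developed to part EWS-FLI1 from its helicase partner DHX9. Whether the control cells were given DMSO or a control hairpin is not stated in the labels, nor is the duration of the knockdown. The series asks what loss or inhibition of the fusion does to expression. With 1 library per group no spread between cultures can be measured, no test was made, and "higher" and "lower" describe these libraries only.

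EWS-FLI1 joins the activating part of EWSR1 to the DNA-binding part of FLI1, an ETS transcription factor. ETS factors recognise a core GGAA. The fusion also binds long runs of GGAA repeats, which act as enhancers in Ewing sarcoma cells, and NR0B1 is the textbook example of a target reached through such a run. Genes activated in this way serve in the tumour field as a readout of fusion activity.

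The sequences just upstream of the start sites are shown because the core GGAA that ETS factors recognise can be searched for in them. Binding at these sites was not measured. RefSeq promoter windows on build GRCh38.p14 were found for 9 of the 10 genes, in 12 windows, and the 250 bases before each start were searched for GGAA on both strands, so as GGAA or TTCC, overlaps included. Capitals mark each match, and every line reads 5′ to 3′ on the strand of the gene. The 4 genes shown are the lowest 3 after knockdown and PRKCB, which had no match. They lie at chrX:30309391-30309640 on the minus strand for NR0B1, chr7:90154219-90154468 on the plus strand for STEAP1, chr5:36066883-36067132 on the minus strand for UGT3A2, and chr16:23835733-23835982 on the plus strand for PRKCB.
NR0B1: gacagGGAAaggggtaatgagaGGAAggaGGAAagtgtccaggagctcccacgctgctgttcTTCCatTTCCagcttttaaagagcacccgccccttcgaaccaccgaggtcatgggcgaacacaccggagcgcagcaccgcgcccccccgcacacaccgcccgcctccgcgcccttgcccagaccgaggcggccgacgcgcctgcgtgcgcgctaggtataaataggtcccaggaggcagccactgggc
STEAP1: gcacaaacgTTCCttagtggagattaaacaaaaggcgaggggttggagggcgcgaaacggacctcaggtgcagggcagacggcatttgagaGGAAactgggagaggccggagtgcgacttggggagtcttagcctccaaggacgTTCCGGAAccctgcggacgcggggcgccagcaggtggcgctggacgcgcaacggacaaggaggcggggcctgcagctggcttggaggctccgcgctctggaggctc
UGT3A2: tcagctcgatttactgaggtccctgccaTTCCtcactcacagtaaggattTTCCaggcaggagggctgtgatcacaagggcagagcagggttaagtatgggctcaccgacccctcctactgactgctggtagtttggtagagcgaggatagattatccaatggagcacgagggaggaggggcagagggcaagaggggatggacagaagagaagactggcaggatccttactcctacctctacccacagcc
PRKCB: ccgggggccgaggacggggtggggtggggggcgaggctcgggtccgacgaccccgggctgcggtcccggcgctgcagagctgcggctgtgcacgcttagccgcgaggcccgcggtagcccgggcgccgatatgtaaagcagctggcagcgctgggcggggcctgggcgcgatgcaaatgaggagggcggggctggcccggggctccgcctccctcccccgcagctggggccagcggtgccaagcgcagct

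The NR0B1 window held 5 matches, STEAP1 held 4, of which a TTCC and a GGAA stand side by side, and UGT3A2 held 2. FCGRT had 5, and neither PRKCB nor BCL11B had any. At least 1 match stood in 10 of the 12 windows, and in 92.7% of 35116 RefSeq promoter windows of the same length. The tandem GGAAGGAA, searched also as TTCCTTCC, was in 0 of the 12 windows and in 3.06% of all windows. These windows are short and do not reach distant repeats, so a missing match says only that these letters are not there.

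Values are FPKM, fragments normalised to transcript length and library size. The deposited values differed in overall scale, though not by a single factor for all loci. Over 9883 genes above 0 in every library, the median gene kept 22.6% of its control FPKM in the knockdown library and 15.7% with YK-4-279. Each library was therefore scaled on its median gene, and a "relative log2 ratio" is the difference of log2(scaled FPKM + 1), which makes changes of scarce genes look smaller. Calls were made at an absolute relative log2 ratio of at least 1. Of 9939 compared genes, those averaging 1 FPKM or more, which included all 10 members, 17% were called lower and 17.3% higher in the knockdown library. With YK-4-279, 1.69% were called lower and 2.41% higher. The filter averages deposited FPKM, which is highest in the control for the median gene, so passing rests mainly on the control level. All 10 members had at least 1 FPKM in the control, and 3 had less after knockdown. FLI1, the part of the fusion that the knockdown should lower, stood at 65.9 FPKM in control cells, 1.48 after knockdown and 8.29 under YK-4-279, or 2.25% and 12.6% of control. EWSR1, which the unrearranged allele also transcribes, kept 16.4% and 14.7%. The lowest values above 0 of olfactory receptor genes were assumed to stand for a single fragment each. On that assumption, a single fragment over 1 kb corresponded to 0.0651 FPKM (control), 0.0171 FPKM (knockdown) and 0.0127 FPKM (YK-4-279). Fragments behind a gene were estimated from these values and its shortest coding transcript over 1 kb, which gives the larger error. Standard errors (SE) come from these estimates and cover counting error only.

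All 10 targets were lower in the knockdown library, against 17% of compared genes called in that direction. The targets were chosen with earlier results of these data known, so this count is no separate support. The 10 targets kept between 1.68% and 9.91% of their control FPKM, where the median gene kept 22.6%. Relative log2 ratios ran from -3.28 to -1.12 with a median of -1.66, and the median over all compared genes was 0.01. Relative to genes of like level, 8 of the 10 passed the threshold, without LIPI and FCGRT, where 8.6% of compared genes were called lower. With YK-4-279 no target was called in either direction. They kept 12.8% to 23.8% of control, around the 15.7% of the median gene, with relative log2 ratios from -0.26 to 0.60 and a median of 0.13, against 0.03 over all compared genes. As deposited, all 10 were lower with YK-4-279, as were 92.2% of compared genes. Both ratios use the same control library. Fewer cells that express a gene and less RNA per cell cannot be told apart in bulk samples.

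**Figure D1:**
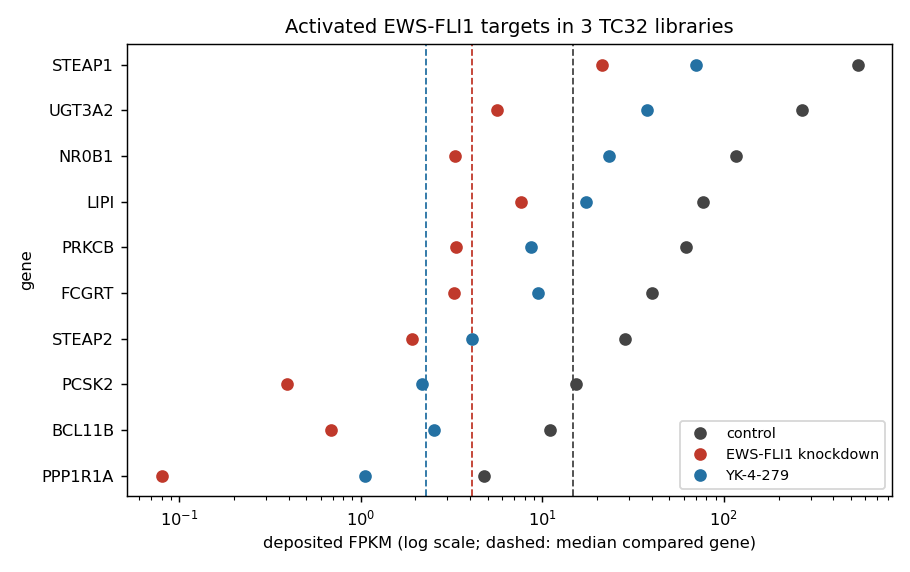
Deposited FPKM of the 10 targets (horizontal log axis) in the control, knockdown and YK-4-279 libraries, 1 point per library, with dashed lines at the median compared gene of each library. Every target is highest in the control and lowest in the knockdown library, where 3 of the 10 stand right of that library's median gene against 8 in the control and 8 with YK-4-279.

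In the control, levels per length spanned 114-fold, from PPP1R1A at 4.77 FPKM to STEAP1 at 545 FPKM. In the knockdown library they spanned 267-fold, from 0.0800 to 21.4 FPKM, and with YK-4-279 66.3-fold, from 1.05 to 70.0 FPKM. STEAP1 was the highest and PPP1R1A the lowest member in every library. The first 4 places in the control went to STEAP1, UGT3A2, NR0B1 and LIPI, and the same 4 genes led in that order with YK-4-279. In the knockdown library LIPI stood second and UGT3A2 behind it, and NR0B1 dropped to the fifth place behind PRKCB. NR0B1, PRKCB and FCGRT had 3.29, 3.35 and 3.26 FPKM there, close enough that their order carries no weight.

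NR0B1 encodes the orphan nuclear receptor DAX1, which represses other nuclear receptors and which Ewing sarcoma cells need for growth. It had 117 FPKM in control cells, 3.29 after knockdown and 23.3 under YK-4-279. Relative to the median gene it was far below control after knockdown, with a relative log2 ratio of -2.76 (counting SE 0.06), and 35 of the 9939 compared genes were lower. With YK-4-279 it was slightly above the median gene at 0.37 (SE 0.03). NR5A1, the receptor best known as a partner of DAX1 in steroid-producing tissue, was listed at 0 in every library, and the paralogue NR0B2 at 0, 0.0188 and 0.0534 FPKM.

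BCL11B, a zinc finger transcription factor best known from T cell development, was a scarce member. It had 11.0 FPKM in control cells, 0.688 after knockdown and 2.52 under YK-4-279. The relative log2 ratios were -1.20 (SE 0.09) and 0.47 (SE 0.08). Its paralogue BCL11A was near the floor of the data, at 0.212, 0.0572 and 0.0815 FPKM. Of T cell genes, CD3E was listed at 0 in every library and CD2 was at 0.0690 to 0.143 FPKM.

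STEAP1 and STEAP2 encode 6-transmembrane membrane proteins of one family, and STEAP2 is a metalloreductase. STEAP1, studied as a surface antigen of Ewing sarcoma, had 545 FPKM in control cells, 21.4 after knockdown and 70.0 under YK-4-279. Its relative log2 ratio was -2.49 (SE 0.04) in the knockdown library, with 53 compared genes lower, and -0.26 (SE 0.02) with YK-4-279, the lowest of the 10. STEAP2 had 28.5, 1.90 and 4.09 FPKM, with ratios of -1.46 (SE 0.10) and -0.09 (SE 0.08).

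Both STEAP genes were thus low after knockdown and close to the median gene with the compound. The ratio of STEAP1 to STEAP2, which no scaling between libraries can alter, was 19.1 in control cells, 11.2 after knockdown and 17.1 under YK-4-279. Other family members went differently after knockdown. STEAP1B stood at 33.7, 9.16 and 5.84 FPKM, and its relative log2 ratios were 0.25 and 0.16. STEAP3 had 4.94, 2.03 and 0.669 FPKM with 0.59 and -0.11. Of the 50-base words in the coding transcripts of STEAP1, 22.1% also occur in STEAP1B, so the division of reads between these copies is uncertain. STEAP4 stayed at 0.102 FPKM or less.

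FCGRT encodes the heavy chain of the neonatal Fc receptor, which pairs with beta-2-microglobulin and returns IgG and albumin to the cell surface. It had 39.9 FPKM in control cells, 3.26 after knockdown and 9.52 under YK-4-279. Its relative log2 ratio was -1.29 (SE 0.10) in the knockdown library and 0.60 (SE 0.07) with YK-4-279, the highest of the 10. Its light chain partner B2M did not share the low value after knockdown, at 3595, 2419 and 928 FPKM with relative log2 ratios of 1.58 and 0.75.

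PRKCB encodes protein kinase C beta, a kinase activated by diacylglycerol and calcium. It had 62.2 FPKM in control cells, 3.35 after knockdown and 8.66 under YK-4-279. The relative log2 ratios were -1.86 (SE 0.06) and -0.13 (SE 0.04), with 245 compared genes below it after knockdown. PRKCB was the most abundant of the 9 protein kinase C genes in the control. Next came PRKCI, at 9.02, 2.13 and 1.32 FPKM with a relative log2 ratio of 0.05 after knockdown, and PRKCA, at 3.998, 1.77 and 0.422 FPKM with 0.63. All 3 had a lower deposited FPKM after knockdown, and relative to the median gene PRKCB was below control and the other two were not.

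PPP1R1A encodes inhibitor 1, a small protein that blocks protein phosphatase 1 once phosphorylated. It was the scarcest member, at 4.77 FPKM in control cells, 0.0800 after knockdown and 1.05 under YK-4-279. In the knockdown library this is about 8.53 fragments and lies below the median of 0.139 FPKM of the 63683 loci without a gene name, so this value is within the range of loci that belong to no named gene. It kept the smallest share of its control FPKM, 1.68%, while its relative log2 ratio was only -1.19 (SE 0.09) because 1 is added to a low value. Without the added value it was -3.76 (SE 0.51). With YK-4-279 the ratio was 0.34 (SE 0.11). Of its exonic bases, 11.1% overlap exons of the antisense gene PDE1B, whose reads cannot be told apart without strand and which stood at 0.386, 0.0609 and 0.0251 FPKM.

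The catalytic subunits that inhibitor 1 acts on differed among themselves. PPP1CA had relative log2 ratios of -1.97 after knockdown and -0.97 with YK-4-279, and PPP1CB had -1.04 and -0.46. PPP1CC had 0.29 and 0.56. The paralogue PPP1R1C had 4.34, 2.31 and 0.871 FPKM, so it was close to PPP1R1A in the control and above it in the knockdown library, at a relative log2 ratio of 0.84.

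LIPI encodes a membrane-bound phospholipase that makes lysophosphatidic acid. Its loci together had 76.9 FPKM in control cells, 7.62 after knockdown and 17.4 under YK-4-279. The relative log2 ratios were -1.12 (SE 0.06), the least negative of the 10, and 0.55 (SE 0.05). The stronger locus had 58.6, 5.46 and 15.0 FPKM, and the weaker had 18.3, 2.16 and 2.43. Taken alone, they had relative log2 ratios of -1.18 and -0.76 after knockdown and of 0.71 and -0.18 with YK-4-279. The loci thus lay on opposite sides of the median gene with the compound. The paralogue LIPH was at 0.152, 0.958 and 0.399 FPKM.

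UGT3A2 encodes a UDP-glycosyltransferase and had the lowest relative log2 ratio of the members after knockdown. It had 269 FPKM in control cells, 5.62 after knockdown and 37.5 under YK-4-279. The ratio was -3.28 (SE 0.05), with 20 of the 9939 compared genes lower, and it was -0.13 (SE 0.02) with YK-4-279. Its neighbour in the family, UGT3A1, had 0.422, 0.00960 and 0.0310 FPKM, too low to be compared.

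PCSK2 encodes prohormone convertase 2, which cleaves peptide hormones in secretory granules. It had 15.3 FPKM in control cells, 0.394 after knockdown and 2.18 under YK-4-279. The relative log2 ratio was -1.92 (SE 0.09) in the knockdown library, or -3.13 without the added 1, and -0.09 (SE 0.08) with YK-4-279. Its chaperone SCG5, measured in a joined name with a neighbour, stood at 20.9, 3.82 and 3.66 FPKM, and its relative log2 ratios were -0.26 and 0.16. The convertase PCSK7 had 5.24, 5.78 and 0.612 FPKM and was higher after knockdown, at 1.79. PCSK1, the convertase that often works beside PCSK2, was at 0.0300, 0.392 and 0.0922 FPKM.

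**Figure D2:**
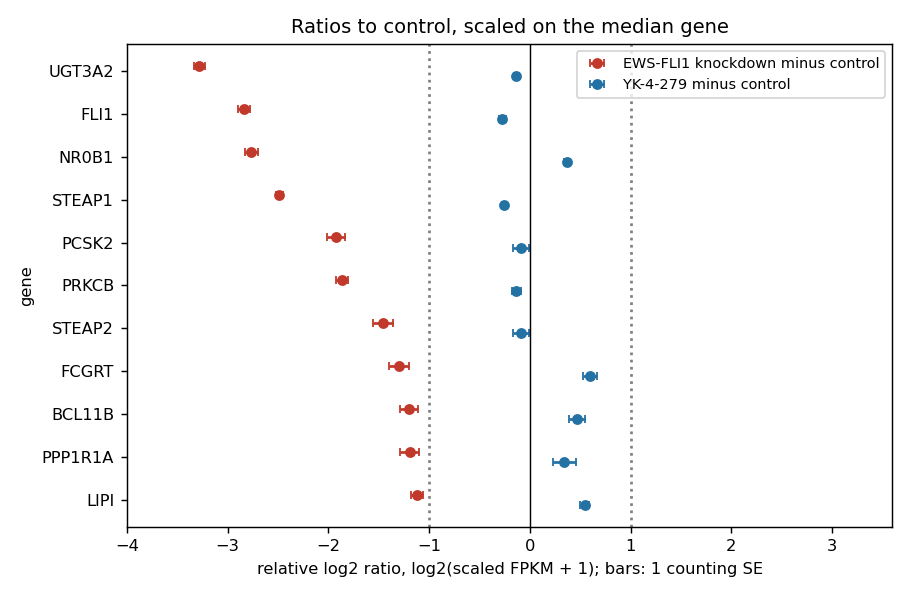
Relative log2 ratio to control (horizontal axis) of FLI1 and the 10 targets in the knockdown and YK-4-279 libraries, with bars of 1 counting SE that hold nothing of the spread between cultures, and dotted lines at the call threshold. All knockdown points lie at -1.12 or below, and all YK-4-279 points lie between -0.27 and 0.60.

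The order of the targets after knockdown depended on the added value. With 1 added, UGT3A2, NR0B1 and STEAP1 were lowest, near FLI1 at -2.84 (SE 0.06). Without it, the lowest values were PPP1R1A at -3.76 (SE 0.51), UGT3A2 at -3.44 (SE 0.06), PCSK2 at -3.13 (SE 0.21) and NR0B1 at -3.01 (SE 0.08), with FLI1 at -3.33. The place of PPP1R1A among these rests on about 8.53 fragments in the knockdown library, and its difference from UGT3A2 is within its counting error. LIPI at -1.19 and FCGRT at -1.47 were the least changed on that scale. Each knockdown ratio was also set against the median of the genes nearest in level in the YK-4-279 library, which that ratio does not use. On this measure UGT3A2 was at -2.27, PCSK2 at -2.03, NR0B1 at -1.90 and PPP1R1A at -1.71. STEAP1 was at -1.35, BCL11B at -1.30, PRKCB at -1.28 and STEAP2 at -1.15. LIPI at -0.22 and FCGRT at -0.68 did not pass the threshold on this measure. Scaling on the upper quartile left LIPI at -0.81 and BCL11B at -0.99, and centring the deposited ratios left PPP1R1A at -0.66.

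With YK-4-279 the targets fell on both sides of the median gene. FCGRT, LIPI, BCL11B, NR0B1 and PPP1R1A were above it, between 0.34 and 0.60, and PCSK2, STEAP2, UGT3A2, PRKCB and STEAP1 below it, between -0.26 and -0.09. Among all compared genes these ratios stood between percentiles 22.4 and 92.1. The sign depends on the scale, since with a scale over all 17160 named genes above 0 in every library 6 of the 10 were below 0, down to -0.77, and the median compared gene was at -0.38. FLI1 itself was at -0.27 (SE 0.04). DHX9 stood at 412, 35.8 and 41.3 FPKM, and its relative log2 ratios were -1.36 after knockdown and -0.61 with YK-4-279.

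The treated libraries were also set against each other, which leaves out the control except through the scale and the filter. All 10 targets were higher with YK-4-279 than in the knockdown library, where 15.3% of compared genes were called higher and 14.5% lower. Their relative log2 ratios ran from 1.37 to 3.15 with a median of 1.78, and the median over all compared genes was -0.01. UGT3A2 at 3.15 (SE 0.05) and NR0B1 at 3.14 (SE 0.06) were the highest, and STEAP2 at 1.37 (SE 0.11) was the lowest. As deposited, the library with YK-4-279 held 2.15 to 13.2 times the FPKM of the knockdown library for these genes, whereas the median compared gene was 1.49-fold lower in it. This comparison holds no library that the other 2 do not use, so it is no separate support.

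**Figure D3:**
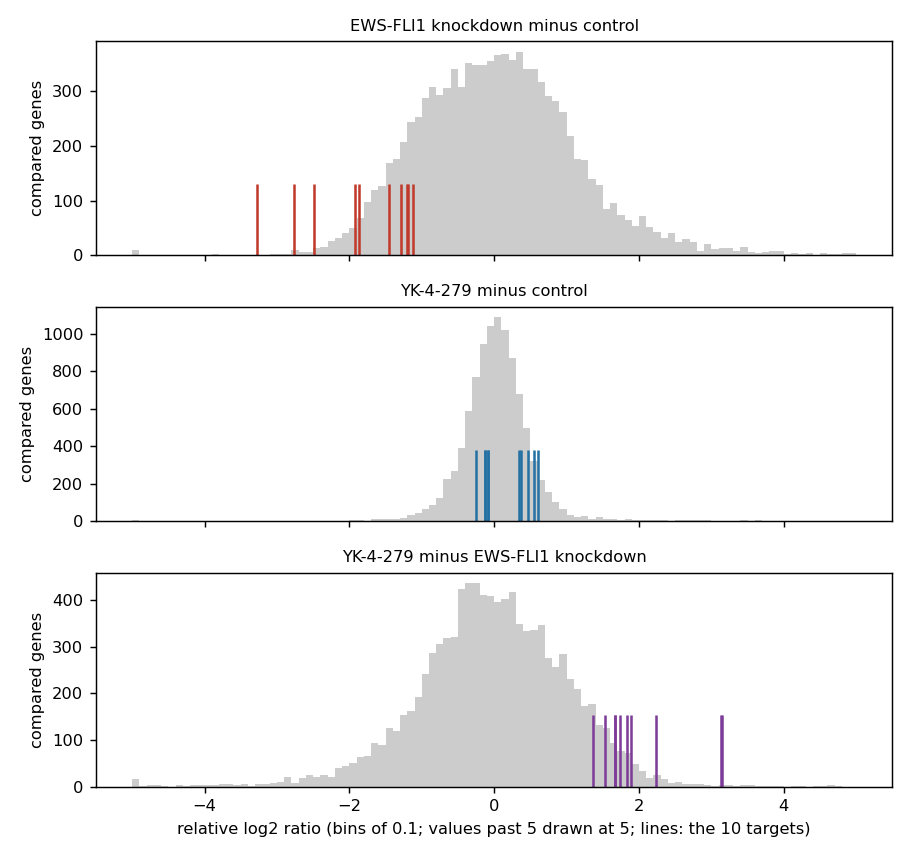
Histograms of the relative log2 ratio over 9939 compared genes in bins of 0.1 (vertical axis, number of genes) for the 3 comparisons, with a line for each of the 10 targets. The lines lie in the lower flank after knockdown, from -3.28 to -1.12, around the centre with YK-4-279, and in the upper flank, from 1.37 to 3.15, when YK-4-279 is set against knockdown.

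The 5 compared genes most like NR0B1, by the distance between pairs of relative log2 ratios to control over the 3 libraries, were CDH12, CHCHD4, MLIP, DLGAP1 and NTS. CDH12, a cadherin, had 45.1, 1.08 and 7.38 FPKM in the control, knockdown and YK-4-279 libraries, at a distance of 0.32. CHCHD4, an import protein of mitochondria, had 153, 4.46 and 24.0 FPKM, at 0.34. MLIP, DLGAP1 and NTS, the peptide neurotensin, followed at 0.38, 0.41 and 0.44. All 5 were low after knockdown, from -3.06 to -2.34, and between -0.0001 and 0.61 with YK-4-279. These 5 genes were picked by these same ratios, so their likeness to NR0B1 follows from the choice. No member was among them.

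Other listed activated targets of the fusion were found on both sides of the threshold after knockdown. Their list holds 45 further genes, of which 36 passed the filter, BMI1 and XG in joined names. After knockdown 13 were called lower, 4 higher and 19 neither, with a median of -0.65 against 0.01 over all compared genes, of which 17% were called lower and 17.3% higher. The mitotic kinase AURKB had 464, 17.2 and 45.1 FPKM with a ratio of -2.56. CCND1, which encodes cyclin D1, had 62.2, 2.25 and 5.70 FPKM with -2.32, and the kinase VRK1 had 402, 19.7 and 53.1 FPKM with -2.17. At the other end, the peptide gene CALCB had 64.9, 126 and 7.16 FPKM with 3.04, the receptor KIT 13.3, 24.3 and 11.2 with 2.75, and the protease PAPPA 1.19, 3.47 and 0.929 with 2.11.

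With YK-4-279 none of these 36 genes was called lower, 7 were called higher and 29 neither, where 1.69% of all compared genes were called lower and 2.41% higher. The median was 0.23 against 0.03. CCK, which encodes cholecystokinin, had 0.634, 0.126 and 38.1 FPKM, a relative log2 ratio of 6.08. It passed the filter only through the YK-4-279 library, as its control and knockdown values were below 1 FPKM. KIT at 2.21 and APCDD1, a Wnt inhibitor, at 2.04 came next. CCND1 at -0.70, AURKB at -0.65 and the transcription factor EGR2 at -0.56 were the lowest. Genes listed as paralogues or partners of the 10 numbered 31, and 12 passed the filter. After knockdown 2 were called lower, PPP1CA and PPP1CB, and 2 higher, PCSK7 and B2M, with a median of 0.27. These shares are close to the 17% and 17.3% of all compared genes. With YK-4-279 none of the 12 was called.

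**Figure D4:**
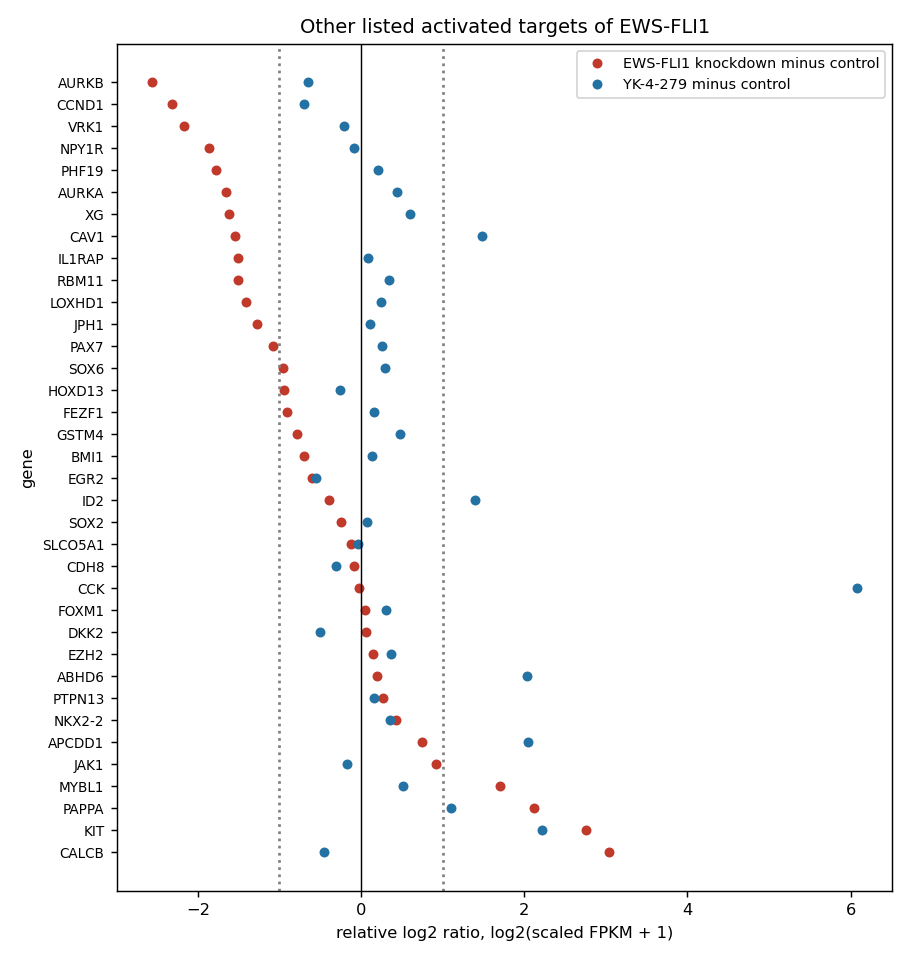
Relative log2 ratio to control (horizontal axis) of the 36 other listed targets that passed the filter, in the knockdown and YK-4-279 libraries, ordered by the knockdown value, with dotted lines at the call threshold. In the knockdown library 13 genes lie at or left of -1 and 4 at or right of 1. With YK-4-279 none lies at or left of -1, and CCK, which passed the filter only through that library, stands apart at 6.08.

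The cell type was checked by its markers. Of 4 Ewing sarcoma markers, FLI1, NPY1R and NKX2-2 were present in the control at 65.9, 59.5 and 2.63 FPKM, and CD99 was listed at 0 in every library. Whether CD99 was absent or not counted cannot be told from a listed 0. After knockdown and with YK-4-279, NPY1R stood at 3.18 and 8.54 FPKM and NKX2-2 at 1.04 and 0.649. The summed scaled level of this list was 41.5, 8.21 and 37.0, so it was low where the targets were low. FLI1 and NPY1R made up most of this sum. NKX2-2 did not share the low value after knockdown on that scale, with relative log2 ratios of 0.43 there and 0.36 with YK-4-279. FLI1 is part of the fusion, and NPY1R and NKX2-2 are also in the list of other targets. Of 8 leucocyte markers, whose cells also use PRKCB, BCL11B and FCGRT, 2 had at least 1 FPKM in control cells, 0 after knockdown and 1 under YK-4-279, and the summed scaled level was 3.76, 2.37 and 5.79. CD79A made up most of it in the control, at 8.90 FPKM there, 0.133 after knockdown and 1.999 under YK-4-279, and PTPRC was at 0.204 to 0.291 FPKM. The 5 neuroendocrine markers summed to 2.55, 14.8 and 3.36 scaled FPKM, with CHGA at 0.0137 FPKM or less. The 6 fibroblast and endothelial markers summed to 23.3, 43.8 and 21.5, and the 4 epithelial markers to 2.53, 6.56 and 6.29. These 3 scaled sums were highest in the knockdown library, where the targets were lowest. Single genes made up most of them there, SCG2 with 12.7, LUM with 36.0 and KRT18 with 5.05 scaled FPKM, whereas DCN of the fibroblast list was lower than in the control, at a relative log2 ratio of -1.86. As deposited, the fibroblast and endothelial sum was highest in the control, at 71.9, 30.4 and 10.1 FPKM, as was the epithelial sum, at 7.80, 4.56 and 2.97 FPKM. The neuroendocrine sum was highest after knockdown on that scale too, at 7.85, 10.3 and 1.59 FPKM. The part of these cell types in the targets' values was not tested.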

How the data were processed

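The FPKM values were deposited by the authors, 1 file per library and 88434 loci each. CASAVA 1.8.2, TopHat and Cufflinks 2.2.1 on build GRCh37 (hg19) are named per the submitters' processing notes. For annotation, filters, between-library scaling and multiply mapped reads, the setting is not given in the sources used here. FPKM was summed over loci that share a name. The scale is the median ratio to each gene's geometric mean over 9883 compared genes, with multipliers of 0.325 (control), 1.44 (knockdown) and 2.12 (YK-4-279). The written design could be read as a scale over all named genes, which is given as an alternative. Transcript lengths, shared words and overlapping exons came from GENCODE, and promoters from RefSeq, both on another build than the files and matched by symbol. All members, FLI1, EWSR1 and DHX9, the 3 highest and 3 lowest other targets in each comparison with control and the 5 genes nearest to NR0B1 are named by rule, and other genes from the lists. The members and lists were chosen with earlier results of these data known. The scripts used Python 3.11.15 with pandas 2.3.3 and were tested on simulated data. Of 10 alternatives, 2 were chosen after seeing the data, the scale over all named genes and ratios without a pseudocount.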

Additional observations from a re-analysis of the deposited data

How the results depend on the processing

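Over 10 alternatives, every knockdown ratio of the 10 targets stayed below 0 (98 values, of which 93 passed the threshold) and every ratio of YK-4-279 to knockdown stayed above 0. Settings that change only the filter or the joined names leave the ratios of the members they keep as they were. Their values repeat the main ones. All values come from the same 3 libraries, so they are no separate support. The ratios of YK-4-279 to control changed sign with the scale, with 56 of 98 values below 0. As deposited, all 10 targets were called lower with YK-4-279, the other targets had 29 lower and 1 higher after knockdown and 30 lower and 1 higher with YK-4-279, and the paralogues and partners had 7 lower and 0 higher after knockdown and 12 lower with YK-4-279. Without scaling, 71.4% of all compared genes were lower after knockdown and 92.2% with YK-4-279, so these counts say little about the lists. With centred ratios, 2 other targets and 1 paralogue or partner were lower with YK-4-279, where 4.49% of all compared genes were. With the scale over all named genes, chosen after seeing the data, other targets had 20 lower and 4 higher after knockdown. With YK-4-279 they had 2 lower and 4 higher. The paralogues and partners had 3 lower and 1 higher after knockdown and 1 lower with YK-4-279. On that scale 33.8% of all compared genes were lower and 9.17% higher after knockdown. With YK-4-279, 8.18% were lower and 1.56% higher. Relative to genes of nearest level, 10 of 36 other targets were lower and 7 higher after knockdown, and 1 of 12 paralogues and partners was lower. Of all compared genes 8.6% were lower and 13.8% higher on that measure. The upper quartile also left 1 paralogue or partner lower after knockdown, where 9.87% of all compared genes were lower. A mean FPKM of at least 5 dropped PPP1R1A and BCL11B. Of 23 other targets that passed it, 9 were lower and 2 higher after knockdown, and 4 were higher with YK-4-279. Of the 5901 genes compared there, 27.3% were lower and 11.2% higher after knockdown, and 2.3% were higher with YK-4-279. Of 7 paralogues and partners, 1 was higher after knockdown. Without a filter 5 of 30 were, where 10.3% of 20260 genes were higher. Fewer genes are compared under the stricter filter, and the cause of the other shifts was not tested. No paired analysis was possible because each group has 1 library, and no library could be left out. Depth limits PPP1R1A in the knockdown library, at about 8.53 fragments.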
